A study of Mus musculus with 5 samples.

Results

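The 9 genes described here encode the receptor chains of type I interferon (Ifnar1 and Ifnar2) and of interferon gamma (Ifngr1 and Ifngr2), the Janus kinases Jak1, Jak2 and Tyk2, and the transcription factors Stat2 and Stat3. They were chosen by gene symbol, with earlier results of these data known, and are 9 of the 23337 genes in the deposited table. The RNA-seq libraries came from embryonic fibroblasts of strain 129Sv mice, and the cells of both groups had been immortalized with SV40T, the viral antigen that disables the tumour suppressors p53 and RB. There were 5 libraries: 3 labelled wild type (WT), and 2 labelled SIRT3 -/- (KO), which lack the mitochondrial deacetylase SIRT3 by their label. Both groups were grown under normal conditions, and no interferon or other agent is named for either. The labels do not give the age or number of embryos or clones behind a line. No label says that libraries of a group came from separate cultures. The p-values here thus set group differences against the spread between libraries, and that spread may be technical only.

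Type I interferons bind a receptor of IFNAR1 and IFNAR2 chains, which carry the kinases TYK2 and JAK1, while interferon gamma binds IFNGR1 and IFNGR2, which carry JAK1 and JAK2. The kinases phosphorylate STAT proteins. Under type I interferon STAT2 joins another STAT and IRF9 in the complex ISGF3, which binds the interferon-stimulated response element (ISRE), whereas STAT dimers bind the gamma-activated site (GAS). STAT3 is best known as the effector of the interleukin-6 family, which signals through the shared chain gp130. Fibroblasts carry both interferon receptors and answer both kinds of interferon.

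The elements that STATs bind were looked for at the starts of these genes. Windows from 250 bases before to 50 after the annotated start, from RefSeq (GRCm38.p6), were found for 9 of 9 genes and searched on both strands. The GAS motif was TTCNNNGAA, its wider form was TTC and GAA with 4 bases between them, and the ISRE core was GAAA, a pair of any bases and GAAA again. These motifs were in 8.3%, 6.95% and 3.44% of all 32851 windows. The upstream bases of Stat2, the member with the largest fall, are shown because it was the 1 member whose window held the ISRE core. The upstream bases of Jak2, the member with the largest rise, had no match to any of the 3 motifs. In the Stat2 sequence the first capitals are the ISRE core, which reads GAAACTGAAA on the other strand, at positions -222 to -213 from the start. The next capitals are the wider GAS form, at positions -210 to -201. The Stat2 bases are chr10:128270248-128270497 and the Jak2 bases are chr19:29251553-29251802, both on the plus strand, with the gene's first base following the last base shown.
Stat2: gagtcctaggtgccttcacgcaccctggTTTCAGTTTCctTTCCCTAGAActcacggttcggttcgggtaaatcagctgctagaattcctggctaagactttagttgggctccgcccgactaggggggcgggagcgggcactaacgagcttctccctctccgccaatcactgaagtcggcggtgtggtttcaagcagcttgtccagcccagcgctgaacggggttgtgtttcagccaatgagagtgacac
Jak2: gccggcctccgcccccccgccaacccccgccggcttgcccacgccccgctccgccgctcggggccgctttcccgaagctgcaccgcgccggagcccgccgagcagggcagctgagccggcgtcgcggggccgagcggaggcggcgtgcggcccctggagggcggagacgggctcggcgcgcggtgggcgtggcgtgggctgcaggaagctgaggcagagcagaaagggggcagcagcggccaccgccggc

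Among the receptor genes, matches fell upstream of Ifnar2 and Ifngr2, and 30 bases around each are shown with the match in capitals. The Ifnar2 stretch, chr16:91372558-91372587, holds a GAS motif at positions -214 to -206. The Ifngr2 stretch, chr16:91546958-91546987, holds the wider form at positions -91 to -82. Both are on the plus strand.
Ifnar2: ctgccaaggccTTCCTGGAAgaagagagta
Ifngr2: ggggccgcggTTCCCGGGAAcaccggggaa
The window of Ifnar1 also held a GAS motif, across the start used for that window. Those of Ifngr1, Jak1, Tyk2 and Stat3 held none of the 3. For Ifnar1, Jak1, Tyk2 and Stat3 the start used for the window lies inside the gene span given below, which has another annotated start. For Ifnar1 the bases before the window's start end at 91485214, and the span begins at 91485032. A match of letters is a description of these windows, and binding was not measured.

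Values are normalized read counts, the reads of a gene scaled by the size factor of the library. A gene was called where the adjusted p of limma on log2(normalized read count + 1) was under 0.05, and all 9 genes passed the filter for low values. The 5 libraries held 33473103 to 41758681 reads. The level of the targeted gene went against the direction of its labels: Sirt3 was at 170, 149 and 118 normalized read counts in the libraries labelled WT and at 200.4 and 217 in those labelled KO, a log2 fold change of 0.53 (SE 0.15, adjusted p = 0.0044). On the recovered reads of 4 libraries DESeq2 gave 0.53 and did not call it (adjusted p = 0.0631), while edgeR gave 0.53 and called it (adjusted p = 0.0115). The authors' deposited table gives 0.48 (adjusted p = 0.019). The labels do not say which part of Sirt3 was deleted, and reads counted over the whole gene can persist from an allele that lacks one part, so this value does not settle the genotype. Every direction below is therefore between libraries labelled KO and libraries labelled WT, written KO and WT for short. Over all 13062 genes tested 65.3% were called in either direction, 32.6% higher and 32.6% lower in KO, with a median log2 fold change of -0.002.

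Of the 9 genes, 2 were called higher in KO (Jak2 and Ifngr2), 3 were called lower (Stat2, Tyk2 and Stat3) and 4 were not called (Ifnar1, Ifnar2, Ifngr1 and Jak1). That is 5 of 9 against 65.3% of all genes tested. Groups did not overlap for 6 of the 9, against 75.4% of all genes. The median log2 fold change was -0.07 over the 9 genes, and the median size was 0.22, against 0.30 over all genes tested. Over called genes the median size was 0.55 for the 5 members and 0.44 for all. The called differences were of 1.17-fold to 1.68-fold.

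**Figure D1:**
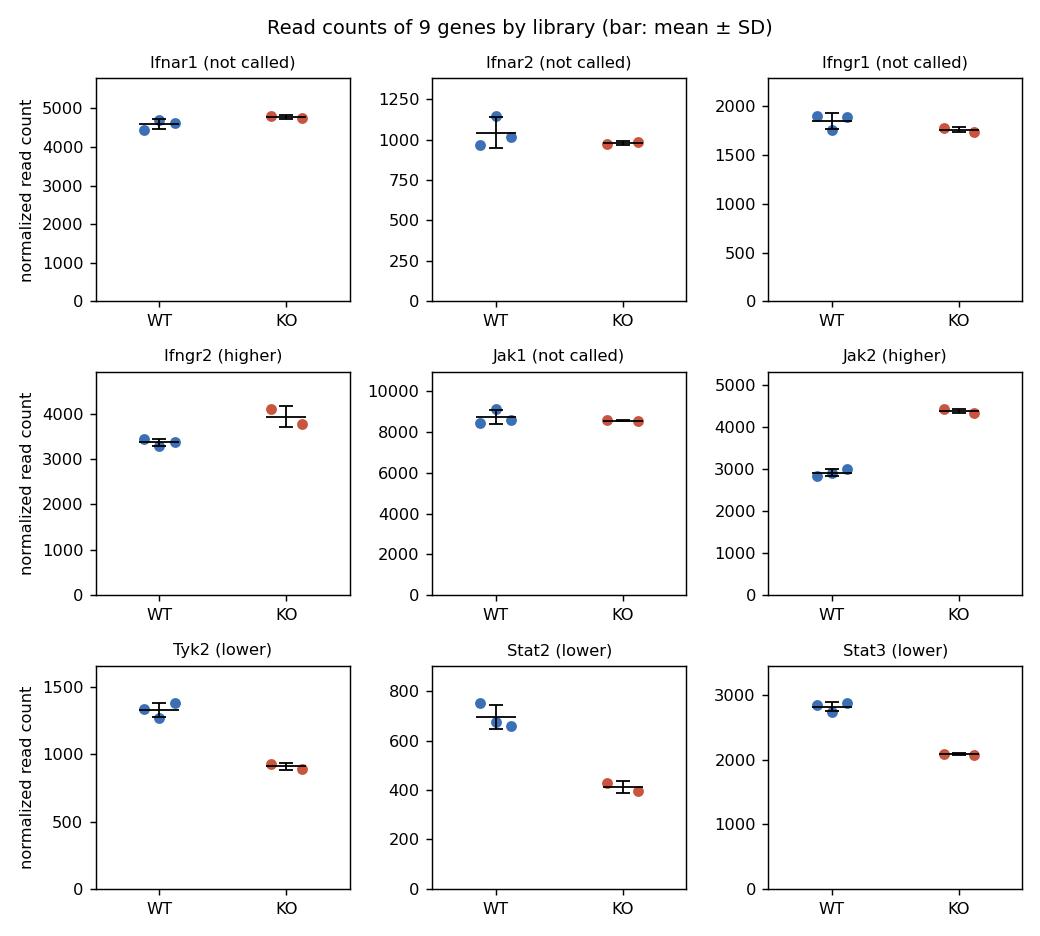
Each panel plots 1 gene, with normalized read count on a linear axis from 0, 1 point per library, and bars at the mean ± SD of 3 libraries labelled WT and 2 labelled KO. Jak2 and Ifngr2 sit higher in both KO libraries and Tyk2, Stat2 and Stat3 lower in both, while the points of Ifnar2, Ifngr1 and Jak1 overlap between groups.

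Of the receptor chains, only that of Ifngr2 was called. Ifngr2, on chromosome 16 from 91547059 to 91564007 (GRCm38.p6), encodes the interferon gamma receptor chain that brings in JAK2. It was at 3435, 3280 and 3383 normalized read counts in the 3 WT libraries and at 4091 and 3764 in the 2 KO libraries. Both KO values were above all WT values, and the KO libraries lay farther apart than the WT libraries did. The mean was 3366 ± 78.6 (SD, n = 3) in WT and rose to 3928 ± 231 (SD, n = 2) in KO, with a log2 fold change of 0.22 (SE 0.045, 95% interval 0.13 to 0.32, adjusted p = 0.0002).

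Its partner Ifngr1, on chromosome 10 from 19591949 to 19610229, encodes the chain that binds interferon gamma and carries JAK1. Ifngr1 was at 1906, 1762 and 1889 normalized read counts in WT and at 1783 and 1743 in KO. WT replicate 2 lay between the KO libraries, and the log2 fold change of -0.07 (95% interval -0.18 to 0.04) was not called (adjusted p = 0.24).

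Ifnar1, on chromosome 16 from 91485032 to 91510523, encodes the chain of the type I receptor that carries TYK2. It was at 4447, 4690 and 4636 normalized read counts in WT and at 4816 and 4748 in KO. Both KO values were above the highest WT value, but by less than the WT libraries differed among themselves. The log2 fold change of 0.06 (95% interval -0.03 to 0.14) was not called (adjusted p = 0.21). Ifnar2, on the same chromosome from 91372783 to 91405589, encodes the high-affinity chain that carries JAK1. It was at 969, 1149 and 1013 normalized read counts in WT and at 970.2 and 985 in KO. Both KO values lay within the WT range, which WT replicate 2 widened, and the log2 fold change of -0.09 (95% interval -0.24 to 0.06) was not called (adjusted p = 0.27). An annotated transcript, Gm21970, covers 13869 of the 32807 bp of Ifnar2 on the same strand, and reads of the pair cannot be told apart here.

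Ifnar2, Ifnar1 and Ifngr2 lie side by side in 1 cluster of cytokine receptor genes, with Il10rb, a chain of the interleukin-10 and interferon lambda receptors, between the Ifnar genes. Il10rb was at 730.1, 831 and 735 normalized read counts in WT and at 744 and 793 in KO (log2 fold change 0.01, adjusted p = 0.93). Of the 4 genes of this cluster, Ifngr2 was thus the 1 that was called.

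The 3 kinase genes each went a different way. Jak2, on chromosome 19 from 29251803 to 29313095, encodes the kinase of the IFNGR2 chain and of several hormone and blood cell cytokine receptors. It was at 2842, 2915 and 2997 normalized read counts in WT and at 4426 and 4351 in KO. The lowest KO library exceeded the highest WT library by far more than either group spread. Jak2 averaged 2918 ± 77.5 (SD, n = 3) in WT and 4389 ± 52.7 (SD, n = 2) in KO, a rise of 1.5-fold, with a log2 fold change of 0.59 (SE 0.043, 95% interval 0.50 to 0.68, adjusted p = 7.7e-11).

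Tyk2, on chromosome 9 from 21104068 to 21131393, encodes the kinase of the IFNAR1 chain and of the interleukin-12 and interleukin-23 receptors. It was at 1337, 1271 and 1380 normalized read counts in WT and at 929 and 891 in KO. The groups did not overlap. Tyk2 averaged 1329.6 ± 55.0 (SD, n = 3) in WT and fell to 910.1 ± 27.4 (SD, n = 2) in KO, with a log2 fold change of -0.55 (SE 0.060, 95% interval -0.67 to -0.42, adjusted p = 6.4e-08). The antisense gene 1700084C06Rik overlaps 24326 of the 27176 bp of Tyk2, and without a stated strand setting the reads of this pair cannot be assigned.

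Jak1, on chromosome 4 from 101151974 to 101265282, encodes the kinase that serves both interferon receptors and gp130. It was at 8470.1, 9121 and 8596 normalized read counts in WT and at 8579 and 8549 in KO. Both KO values lay within the WT range. The log2 fold change of -0.03 (95% interval -0.11 to 0.06) was not called (adjusted p = 0.57), and the interval leaves room for a change of either sign smaller than those of Jak2 and Tyk2.

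Both STAT genes were called lower. Stat2, on chromosome 10 from 128270498 to 128292853, encodes the STAT that is particular to type I and type III interferon signalling. It was at 751, 675 and 661 normalized read counts in WT and at 429 and 396 in KO. The lowest WT library was well above the highest KO library. Stat2 fell from 695 ± 48.8 (SD, n = 3) to 413 ± 23.8 (SD, n = 2) and was 1.68-fold higher in WT, with a log2 fold change of -0.75 (SE 0.083, 95% interval -0.92 to -0.58, adjusted p = 7e-08). Stat2 rests on the fewest reads of the 9 genes, with 356 in its lowest library. Its spread between WT libraries, 7.02% of the mean, compares with 3.65% from counting alone.

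Stat3, on chromosome 11 from 100886806 to 100939594, encodes the STAT of the interleukin-6 family. It was at 2844, 2745 and 2876 normalized read counts in WT and at 2097 and 2075 in KO. The groups did not overlap and each was tight. Stat3 averaged 2822 ± 68.3 (SD, n = 3) in WT and fell to 2086 ± 15.4 (SD, n = 2) in KO, with a log2 fold change of -0.44 (SE 0.045, 95% interval -0.53 to -0.34, adjusted p = 2.7e-08).

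In the authors' deposited table the same 5 of the 9 genes had an adjusted p under 0.05, against 50.5% of its 15222 genes with one. The authors' deposited table gives a log2 fold change of 0.59 for Jak2, 0.22 for Ifngr2, -0.74 for Stat2, -0.54 for Tyk2 and -0.43 for Stat3.

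Ratios between genes of the same or of parallel steps of the pathway were taken within each library from RPKM, reads scaled by gene length and library size. The ratio of Jak2 to Tyk2 was 2.06, 2.22 and 2.10 in WT and 4.61 and 4.73 in KO, a difference of 1.14 on the log2 scale. The ratio of Jak1 to Tyk2, the kinase pair of the type I receptor, was 6.04 on average in WT and 8.66 in KO (log2 difference 0.52). Jak1 to Jak2, the kinase pair of the interferon gamma receptor, went the other way, from 2.84 to 1.85 (log2 difference -0.62). All 3 kinase ratios separated the groups, as did every one of the 9 pairs compared. Single genes separated the groups in 75.4% of those tested, but no such share was taken for ratios of other gene pairs. The 9 pairs also share genes with each other.

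The receptor pairs differed by less. Ifngr1 to Ifngr2 was 0.543 on average in WT and 0.443 in KO (log2 difference -0.29). Ifnar1 to Ifnar2 was 2.00 in WT and 2.21 in KO (log2 difference 0.15, against an SD within groups of 0.080). Ifnar1 to Stat2, a receptor chain against the STAT it serves, was 4.14 in WT and 7.27 in KO (log2 difference 0.81), and Stat2 to Stat3 was 0.251 in WT and 0.202 in KO (log2 difference -0.32). With 3 libraries against 2, the exact permutation test (two-sided) has 10 assignments and cannot go below p = 0.1. This exact test gave p = 0.1 for 7 of the 9 pairs compared and 0.2 for Ifnar1 to Ifngr1 and Ifnar2 to Ifngr2, or 0.129 and 0.2 after adjustment over the 9 pairs, so no ratio passed the threshold.

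Levels can be ranked between genes only per length, so RPKM was used. In WT, Jak1 and Ifngr2 led with 44.6 ± 1.71 and 44.0 ± 1.08 RPKM (SD, n = 3), and their ranges overlapped. Ifngr1 followed at 23.9 ± 1.05 RPKM. Ifnar1 at 17.7 ± 0.476 and Stat3 at 17.0 ± 0.432 RPKM overlapped each other, with Jak2 below them at 15.7 ± 0.416 RPKM. The lowest levels were those of Ifnar2 at 8.90 ± 0.787, Tyk2 at 7.39 ± 0.313 and Stat2 at 4.28 ± 0.304 RPKM. All 9 were within the detected range, from the 34.0th percentile of tested genes (Stat2) to the 86.1st (Jak1).

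In KO the order changed at 2 places. Ifngr2 stood first at 51.2 ± 3.48 RPKM (SD, n = 2), above Jak1 at 43.6 ± 0.503 RPKM. Jak2 moved from sixth to the third place at 23.5 ± 0.497 RPKM, next to Ifngr1 at 22.6 ± 0.573 RPKM. Ifnar1 at 18.4 ± 0.351 RPKM stayed above Stat3, as in WT, with Stat3 at 12.5 ± 0.207 RPKM. Ifnar2, Tyk2 and Stat2 kept the last places at 8.30 ± 0.0147, 5.03 ± 0.197 and 2.53 ± 0.169 RPKM. No neighbours in the KO order overlapped, with 2 libraries behind each.

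**Figure D2:**
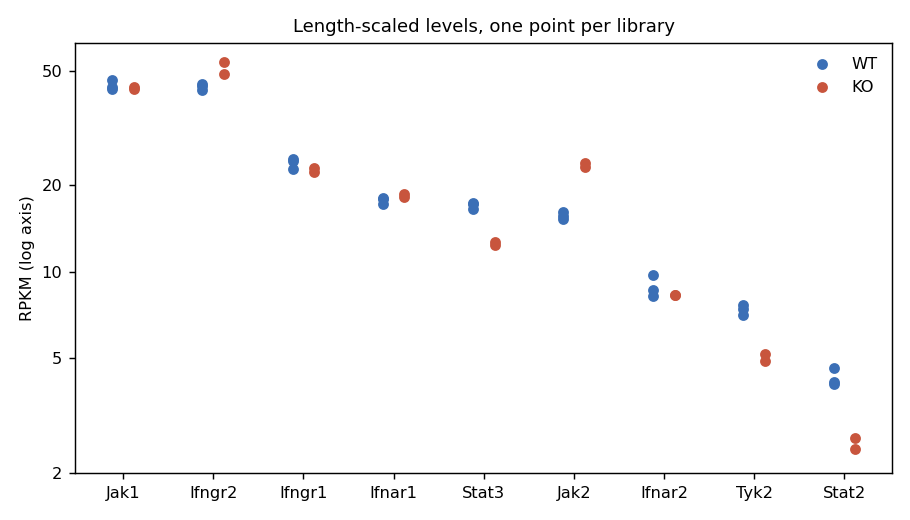
RPKM on a log axis for the 9 genes in their WT order, with 1 point per library, blue for WT and red for KO. Jak1 and Ifngr2 lead and Stat2 is lowest in both groups, and Jak2 sits above Ifnar1 in KO but below it in WT.

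The genes around several called members differed between the groups in the same direction as the member, most clearly around Jak2, Stat3 and Stat2. The 38 tested genes within 5 Mb of Jak2 had a median log2 fold change of 0.52, with 25 called higher and 3 lower. The value of Jak2 itself, 0.59, lay near that median. Its neighbours Ak3 and Rcl1 had log2 fold changes of 0.76 (adjusted p = 3.5e-12) and 1.29 (adjusted p = 4.5e-15). Less the local median, the log2 fold change of Jak2 was 0.07 and was not called (adjusted p = 0.2). With windows of 10 Mb, added after seeing the data, the value was 0.24 and was called (adjusted p = 5.74e-05), and with 2 Mb it was -0.10 (adjusted p = 0.0559).

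Stat3 lies in a gene-dense stretch where 180 tested genes within 5 Mb had a median log2 fold change of -0.33, with 119 called lower and 24 higher. Its neighbours Stat5b and Stat5a fell too, at log2 fold changes of -0.55 and -1.98. Stat3 overlaps Stat5a by 72 bp. Less the local median, the log2 fold change of Stat3 was -0.10 and was not called (adjusted p = 0.057). With 10 Mb it was -0.13 and was called (adjusted p = 0.0167), and with 2 Mb it was 0.018 (adjusted p = 0.751).

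Stat2, Tyk2 and Ifngr2 were still called with the local median removed. The 81 genes around Stat2 had a median log2 fold change of -0.31, with 45 called lower and 7 higher. Stat2 was lower than that by 0.44 on the log2 scale (log2 fold change less the local median -0.44, adjusted p = 0.00011). The 75 genes around Tyk2 had a median of -0.12, and Tyk2 less that median was at -0.43 (adjusted p = 2.4e-06). The 58 genes around Ifngr2 had a median of 0.05, and Ifngr2 less that median was at 0.17 (adjusted p = 0.0027). With the median within 5 Mb removed, 3 of the 9 genes were called, 1 higher and 2 lower, against 59.9% of the 12937 genes for which it could be taken. The medians around Ifnar1, Ifnar2, Ifngr1 and Jak1 were between 0.02 and 0.06, and none of these 4 was called after their removal. The part of the regional shifts in the differences of single genes was not tested.

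**Figure D3:**
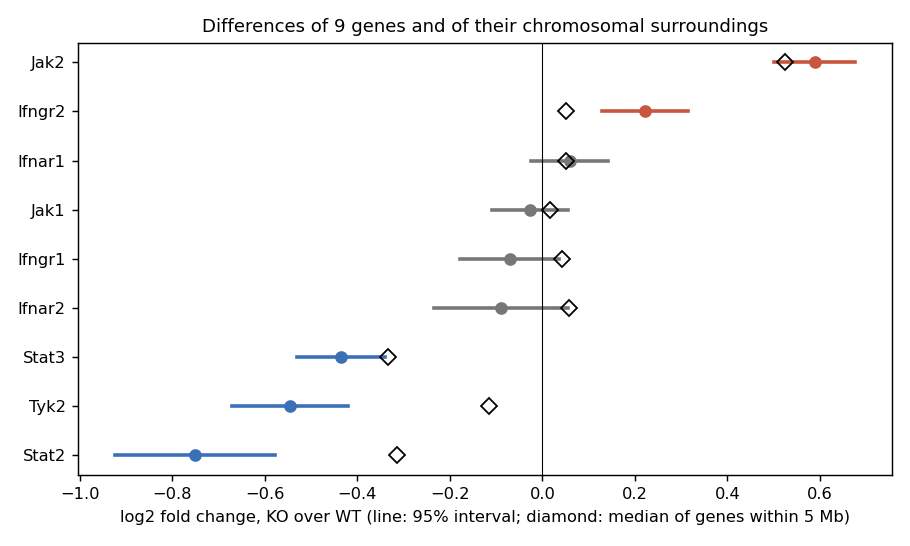
Points are log2 fold changes of KO over WT with 95% intervals (lines), red where called higher, blue where called lower and grey where not called, and diamonds are the medians of tested genes within 5 Mb. The diamonds lie close to the values of Jak2 and Stat3 and far from those of Stat2 and Tyk2.

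**Figure D4:**
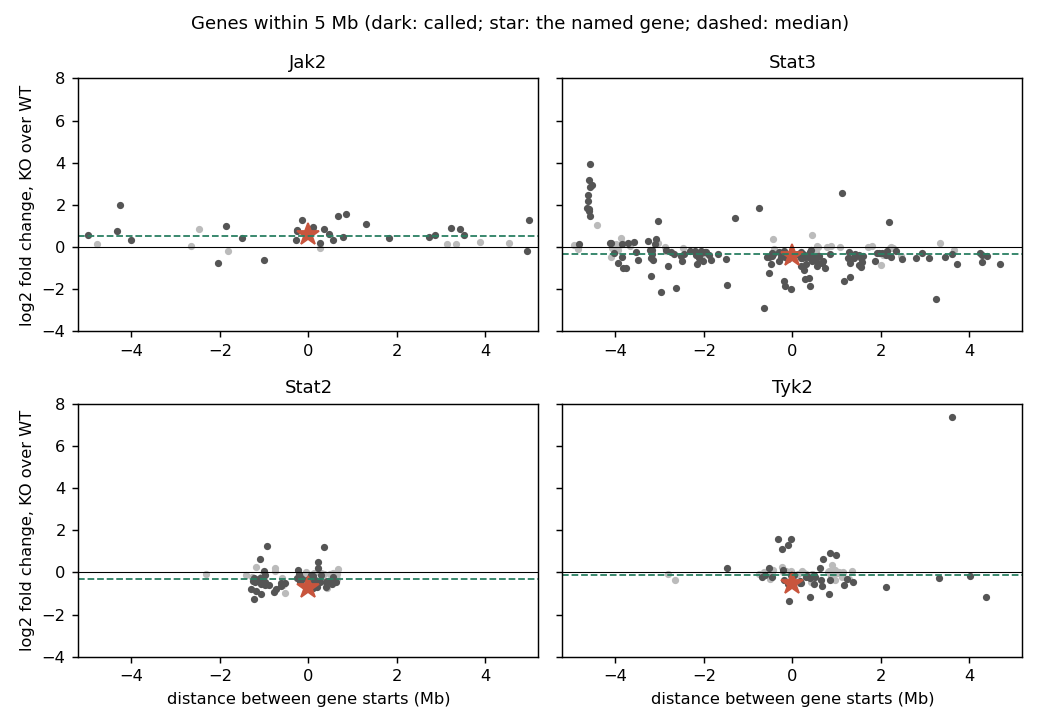
Log2 fold change of each tested gene within 5 Mb against its distance in Mb from the start of Jak2, Stat3, Stat2 or Tyk2, with called genes dark, the named gene as a star and the median dashed. The dashed lines are at 0.52 for Jak2, -0.33 for Stat3, -0.31 for Stat2 and -0.12 for Tyk2.

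The nearest tested genes, up to 2 on each side, varied more than these medians. Next to Ifngr1, which was not called, Perp and Tnfaip3 rose with log2 fold changes of 3.71 and 1.37 and Map3k5 fell by 0.70 on the log2 scale. Next to Jak1, also not called, Ak4 rose with a log2 fold change of 1.92 and Raver2 fell by 1.66. Cachd1 (0.09) and Leprot (0.02) beside Jak1 were not called. Beside Tyk2, Raver1 and Cdc37 fell by 0.13 and 0.14, while Pde4a (-0.12) and Raver1-fdx1l (0.06) were not called. Beside Stat2, Timeless and Cnpy2 fell by 0.34 and 0.74, while Pan2 (-0.10) and Apon (-0.37) were not called.

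The other genes of the pathway were read from gene lists. All lists together, including those of the members and of the cell type markers, held 209 genes. No gene of the 21 interferon ligands passed the filter for low values, and 13 were at 0 in every library. Ifne, an epithelial type I interferon, was at 1.24 ± 0.530 normalized read counts (SD, n = 3) in WT and 0.556 ± 0.786 (SD, n = 2) in KO. Ifna13 was at 0.295 ± 0.510 and 1.11 ± 0.00762. Interferon transcripts were thus at or near 0 in both groups at this depth.

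Of 6 tested genes among the remaining JAKs and STATs and Irf9, 5 were called lower, 0 higher and 1 not. Their median log2 fold change was -0.95, against -0.002 over all genes, of which 32.6% were called lower. Stat5a, a STAT of growth hormone and prolactin signalling, fell from 790.1 ± 35.1 to 200.2 ± 20.53 normalized read counts (log2 fold change -1.98, SE 0.091, adjusted p = 3.4e-14). Stat6, the STAT of interleukin-4 and interleukin-13, fell from 9206 ± 94.96 to 5813 ± 212 (log2 fold change -0.66, adjusted p = 1.6e-12). Jak3, a kinase mainly of lymphocytes, was the 1 not called (log2 fold change -0.11, adjusted p = 0.63, chosen after its value was seen). Stat5a and Stat5b lie next to Stat3, and Stat6 lies within 5 Mb of Stat2, so all 3 belong to the shifted regions described above. The part of those regional shifts in the counts of this list was not tested.

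Other receptor chains that signal through JAKs were counted in the same way: of 20 tested, 9 were called lower, 4 higher and 7 not, against 65.3% of all genes called, with a median log2 fold change of -0.20. The leptin receptor gene Lepr fell by 2.58 on the log2 scale (adjusted p = 5.1e-21), Il13ra1 by 1.45 and the interleukin-6 receptor gene Il6ra by 1.14. The genes that rose were Il12rb1, Epor, Lifr and Il12rb2, with log2 fold changes of 2.47, 0.90, 0.44 and 0.38 (named after their values were seen). Il12rb1 averaged only 16.6 normalized read counts in KO.

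Of 19 tested negative regulators, 9 were called lower, 2 higher and 8 not, against 65.3% of all genes called (median log2 fold change -0.13). Socs3, an inhibitor of gp130 signalling that STAT3 induces, fell by 0.57 on the log2 scale (adjusted p = 8.4e-07). Pias4, a SUMO ligase that restrains STATs, fell by 0.50 (adjusted p = 3.8e-08). Usp18, which blocks the IFNAR2 chain, fell by 1.86 (adjusted p = 1.6e-06). Socs2 and Ptpn6 rose, with log2 fold changes of 0.37 and 0.71 (named after their values were seen).

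Target genes of the 2 arms were counted by the same rule. Over all genes tested, 32.6% were called lower and 32.6% higher. Of 25 tested ISGF3 targets, 24 were called lower and 1, Ifit2, was called higher (log2 fold change 1.14, named after its value was seen), with a median of -1.92. The list holds 1 of the 9 genes, Stat2. Other genes are also in more than 1 list, so the counts by list are not of separate sets. Trim25, an E3 ligase of RNA sensing, fell by 1.82 on the log2 scale (adjusted p = 2.6e-16), and the RNA sensor gene Ddx58 fell by 1.89 (adjusted p = 4.1e-16). Of 13 tested interferon gamma targets, 9 were called lower, 1 higher and 3 not, with a median of -0.99. The guanylate-binding protein gene Gbp2 fell by 3.12 (adjusted p = 8.4e-12).

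STAT3 targets went both ways: of 18 tested, 7 were called higher, 8 lower and 3 not, against 65.3% of all genes called. Their median log2 fold change was -0.04. Timp1, an inhibitor of metalloproteinases, fell by 0.63 on the log2 scale (adjusted p = 7.7e-11). The transcription factor gene Cebpd fell by 1.38 (adjusted p = 1.5e-10) and Bcl3, a partner of NF-kB, by 1.74 (adjusted p = 6.8e-08).

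**Figure D5:**
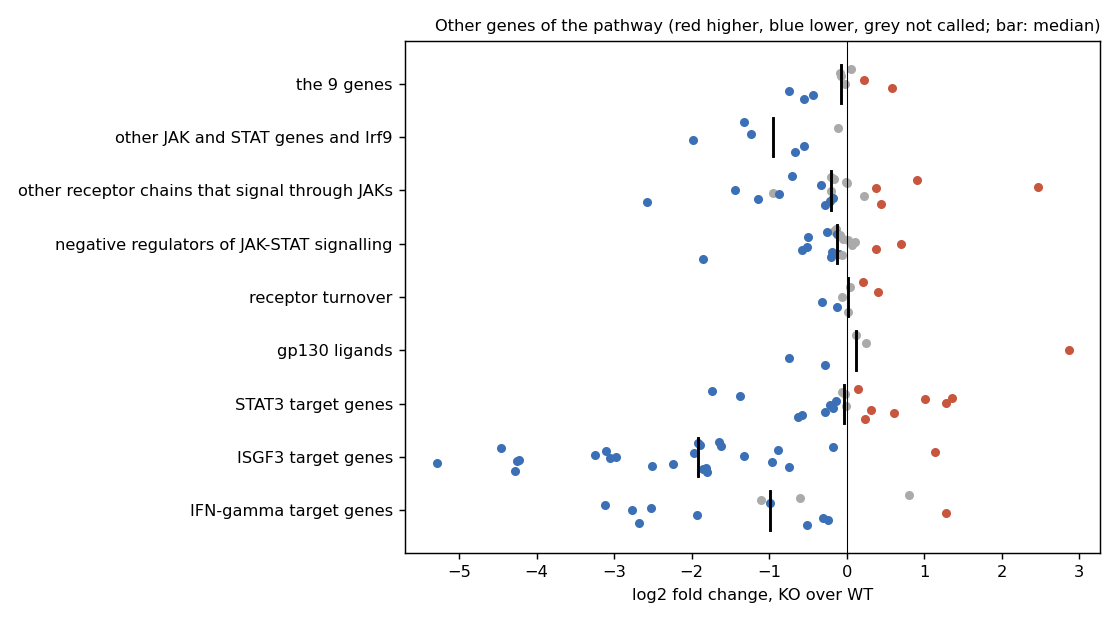
Log2 fold change of KO over WT for each tested gene of 8 lists and the 9 genes, 1 point per gene, red where called higher, blue where called lower, grey where not called, with a bar at the median of each list. The bars lie at -1.92 for ISGF3 targets, -0.99 for interferon gamma targets and -0.95 for the other JAK and STAT genes with Irf9, and at -0.04 for STAT3 targets.

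Markers of the labelled cell type were present: the 15 fibroblast markers summed to 6178 to 6380.1 RPKM in WT and to 5209 to 5309 in KO. Of 14 tested, 9 were called lower, 2 higher and 3 not, against 65.3% of all genes called. Their median log2 fold change was -0.42. Pdgfra, a receptor gene for platelet-derived growth factor, had the smallest adjusted p of these markers and fell by 3.997 on the log2 scale (adjusted p = 1.2e-24). The collagen gene Col1a1 was called higher, with a log2 fold change of 0.38 (named after its value was seen). The 12 macrophage and blood markers summed to 5.85 to 6.34 RPKM in WT and 5.35 to 5.55 in KO, with Cd3e, Hba-a1 and Tyrobp among those at 0 in every library and 1 of 3 tested genes, Csf1r, called higher. The 8 epithelial markers summed to 0.944 to 1.01 and 0.771 to 0.895 RPKM, with Krt5 at 0 and, of 2 tested, 1 called higher and 1 lower. The 8 endothelial markers summed to 13.9 to 15.7 RPKM in WT and 18.6 to 19.0 in KO, with Tie1 at 0. Of 6 tested endothelial markers, 3 were called higher, 1 lower and 2 not, with a median log2 fold change of 0.82. The part of such differences in the values of the 9 genes was not tested. In bulk RNA, fewer cells that express a gene and less RNA per cell cannot be told apart.

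By the distance of log2 values centred per gene over the 5 libraries, Ston1 and Dctn6 were the genes most like Jak2, at distances of 0.025 and 0.040 and with log2 fold changes of 0.58 and 0.62. The noncoding RNA gene Neat1 and the lipoprotein receptor gene Vldlr were the genes most like Stat2, at distances of 0.065 and 0.074 and with log2 fold changes of -0.78 and -0.73.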

How the data were processed

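RNA was captured on poly-T beads, prepared with Nextera XT and run on a NextSeq, per the labels' protocols. STAR, DESeq2 and mm10 are named, without versions or roles, in the submitters' processing notes. Not given in the sources used here are the counting program, the annotation and the strand setting. The deposited signal values are reads that the authors scaled by size factors, as the values show. In each library 100% of values gave whole reads within 0.1 reads. WT replicate 2, with a step of 0.989, was left out of the count tests by choice, though its values gave whole reads too. Those tests used the other 4 libraries. The authors also deposited RPKM, a log2 fold change, a Wald score and p-values, per the file headers.

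Libraries were grouped by title. The planned test depended on the unit, and limma 3.58.1 (R 4.3.3, trended prior) was run on log2(value + 1), a scale that understates the changes of low genes, for the 13062 genes that reached 10 in 2 or more libraries. P-values were adjusted by Benjamini-Hochberg over all genes tested, two-sided. The local shift of a gene is the median log2 fold change of the other tested genes within 5 Mb (at least 5), subtracted as if known without error. Positions came from a RefSeq table (GRCm38.p6, which mm10 also names) and covered 23030 genes, 2274 of them through a synonym, and overlaps came from GENCODE M21. Within-library ratios were compared by exact permutation. Reads behind a gene limit its precision, and counting spreads cover counting error only.

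The 9 genes and the lists were chosen with earlier results of these data known. Named genes follow a rule: the 9 members, Sirt3, Il10rb, up to 3 called genes per list with the smallest adjusted p, up to 2 chromosomal neighbours per side, and the 2 closest profiles of the largest rise and fall. Some of these are left out for length and some results are not reported here. Alternatives were TMM and median-ratio rescaling, other filters and pseudocounts, each library left out, the replicate block, edgeR 4.0.16, DESeq2 1.42.0, the authors' comparison and the removal of local shifts.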

Additional observations from a re-analysis of the deposited data

How the results depend on the processing

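Stat2, Tyk2 and Ifngr2 kept their direction and their call under every alternative run, with log2 fold changes of -0.81 to -0.39, -0.58 to -0.43 and 0.16 to 0.28. Jak2 and Stat3 lost their calls when the local shift of 5 or 2 Mb was removed, but not with 10 Mb. With a window of 5 Mb their log2 fold changes were 0.07 (adjusted p = 0.198) and -0.10 (adjusted p = 0.0573), and with 2 Mb they reversed to -0.10 (adjusted p = 0.0559) and 0.018 (adjusted p = 0.751). The number of the 9 genes called higher was 1 in place of 2 with 5 Mb and with 2 Mb, because Jak2 was lost, and 2 were called lower in place of 3. With 10 Mb the log2 fold changes of Jak2 and Stat3 were 0.24 (adjusted p = 5.74e-05) and -0.13 (adjusted p = 0.0167). The 2 Mb and 10 Mb windows were chosen after seeing the data. Jak1, never called, reversed to 0.002 with DESeq2 (adjusted p = 0.976) and 0.008 with edgeR (adjusted p = 0.883) on 4 libraries, to 0.005 without WT replicate 2 (adjusted p = 0.917; -0.048 to 0.005 with each library left out) and to 0.077 with the 2 Mb shift (adjusted p = 0.0975). The log2 difference of the Ifngr1 to Ifngr2 ratio ranged from -0.34 to -0.25 with each library left out, and with each left out 2 of the 9 genes were called higher and 3 lower. Leaving out a KO library leaves 1, which is assumed to vary like the WT libraries. Sirt3 lost its call with DESeq2 (log2 fold change 0.53, adjusted p = 0.0631) and with the local shift removed (0.22, adjusted p = 0.219). The correlation of same-numbered deviations from group means was -0.01 and -0.005. With 2 KO libraries these deviations mirror each other, so the values cannot show whether replicate numbers pair the libraries. With the replicate block the calls among the 9 genes stayed at 2 higher and 3 lower, and those among all genes were 3958 higher and 3947 lower, against 4259 and 4264. Depth limits Stat2 most, with 356 reads in its lowest library.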

Other observations

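Of 7 tested genes that control the turnover of interferon receptors, 2 were called higher, 2 lower and 3 not. Their median log2 fold change was 0.02, and 65.3% of all genes were called. Cul1, the cullin of an SCF ubiquitin ligase, rose with a log2 fold change of 0.41 (adjusted p = 6.8e-09), and Btrc, the substrate receptor that recognises phosphorylated IFNAR1, rose with 0.21 (adjusted p = 0.0079). Prkd2, a kinase that acts on IFNAR1, fell by 0.32 on the log2 scale (adjusted p = 0.0057).

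Among the ligands of gp130, the receptor chain upstream of STAT3, 1 of 5 tested genes was called higher, 2 lower and 2 not. The share called over all genes was 65.3%. The cardiotrophin gene Ctf1 averaged 12.1 ± 2.50 normalized read counts (SD, n = 3) in WT and rose to 94.1 ± 19.4 (SD, n = 2) in KO, with a log2 fold change of 2.87 (adjusted p = 4.9e-08). Il11 fell by 0.75 on the log2 scale (adjusted p = 5.7e-05) and Lif, the leukaemia inhibitory factor gene, by 0.28 (adjusted p = 0.00034).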
